A study of Bos taurus with 12 samples.

Results

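Solute carriers (SLC) are membrane proteins that move small molecules across the plasma membrane or the membranes of organelles. This account covers the carriers of nutrients in bovine endometrium: those of sugars, amino acids, peptides, monocarboxylates, fatty acids and nucleosides. They were chosen by name alone, as every probe set whose gene symbol belongs to SLC1A, SLC2A, SLC3A, SLC5A, SLC6A, SLC7A, SLC15A, SLC16A, SLC27A, SLC28A, SLC29A, SLC36A, SLC38A or SLC43A. This gave 79 of 24016 probe sets, and 55 of the 9155 genes that the chip names. A total of 13 of the 14 families had a member, and no probe set was named for SLC36A. The symbol SLC7A6OS shares the prefix of a family but belongs to no carrier and was left out.

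The endometrium came from Simmental heifers after estrous synchronization. It was brushed from the uterine wall (cytobrush) on days 3 and 7 of a cycle without an embryo, and a blastocyst produced in vitro was transferred on day 7 of the next cycle. Heifers with an embryo detectable on day 28 formed the high receptivity group (HR, labelled receptive) and those without one the low receptivity group (LR, labelled non receptive), which gave the groups HR3, LR3, HR7 and LR7. Each group had 3 arrays, and each array held a pool of RNA from 5 biopsies, so the spread within a group is that between pools and not between heifers. Receptivity is known only from the later outcome.

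The gland and surface epithelium of the uterus secretes the fluid that feeds the conceptus before it attaches. Carriers in these cells load glucose, amino acids and other substrates into that fluid or take them up for the cells' own use. Concentrative carriers, such as those of SLC5 and SLC6, use the sodium gradient, whereas those of SLC2, SLC29 and SLC43 let their substrates pass down a gradient. The amino acid exchangers of SLC7 work mostly as pairs with a heavy chain of SLC3.

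Values are log2 signals, so a difference of 1 is a doubling. They are given per pool or as mean ± SD (n = 3), and differences with their standard error (SE). A probe set was tested when its SD over the 12 arrays was at least 0.2 and its signal lay above the array median (6.63 to 6.77) on every array of at least 1 group. Of the 79 members 29 passed, for 23 genes, and 12 of these lay above the median in some groups only, so a count over the 29 favours carriers that differ. Counts from a fit of all 24016 probe sets, which includes all 79 members, therefore stand beside it. "Rose" and "fell" are written only at a Benjamini-Hochberg adjusted p under 0.05 in limma. Signals of different probe sets cannot be ranked against each other.

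Summed linear signals of marker genes were taken for each cell type, and genes of high signal weigh most in them. Those of uterine epithelium (13 genes on the chip) lay between 30500 and 40400 on all arrays. Those of stroma (14 genes) spanned 20500 to 24900 in HR3, 11200 to 19100 in LR3, 11000 to 21500 in HR7 and 8910 to 13000 in LR7. Neutrophil markers (5 genes) spanned 357 to 493 in HR3, 488 to 975 in LR3, 6680 to 12700 in HR7 and 3580 to 5850 in LR7, with MPO and FCGR3A never above the median. Markers of squamous epithelium (6 genes) spanned 2710 to 4280 in HR7 and 552 to 689 in LR7, against 271 to 482 over both day 3 groups, while KRT14, COL17A1, KRT4 and SFN were never above the median. Ciliated epithelium (4 genes, all of which fell with the day) spanned 1010 to 1950 in HR3, 1110 to 1700 in LR3, 348 to 925 in HR7 and 804 to 1310 in LR7. Of T and NK cells (11 genes) 6 markers fell and none rose, with sums of 1440 to 2160 over day 3 and 780 to 1490 over day 7. Of macrophages (8 genes, 1660 to 2960 over day 3, 2120 to 4560 over day 7) 3 rose, CD68 by 2.02, and 1 fell. The one tested marker of endothelium, EMCN, fell by 1.89 and that of smooth muscle, SMTN, rose by 2.06. Of the 9 endothelium genes 8 were never above the median, and of the 8 smooth muscle genes 7. Their means did not all follow the tested marker. CLDN5 of endothelium had 5.60 and 5.35 in HR3 and LR3 and 5.90 and 6.44 in HR7 and LR7. LMOD1 of smooth muscle had 6.43 and 6.32 in HR3 and LR3 and 6.10 and 6.15 in HR7 and LR7. The tested markers of red blood cells and of B and plasma cells did not pass over both receptivity groups. No listed marker stood at 0 on all arrays. The signal of the control RNA dap at its 5′ end minus that at its 3′ end, a sign of how complete the labelled RNA was, spanned -2.74 to -1.32 in HR3, -3.13 to -2.66 in LR3, -2.3 to -1.77 in HR7 and -1.88 to -1.47 in LR7. LR3 therefore did not overlap with LR7. In such bulk samples fewer cells of a type and less RNA per cell cannot be told apart, and the part of these markers in the results below was not tested.

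Comparison of day 7 with day 3 over both receptivity groups asked which carriers follow the cycle. Of the 29 tested members, 18 rose and 5 fell, while 31.1% of all tested probe sets rose and 34.8% fell. The median difference of the members was 0.46, against -0.08 for all tested probe sets. Among the 17 members above the median on all arrays, 13 rose and 1 fell, beside 31.6% and 35.5% of all probe sets under that filter. In the fit of all probe sets, 21 of the 79 members rose and 9 fell, against a background of 12.5% and 14.0%. The median difference was 0.09 for the members and -0.04 for all probe sets. Carriers that rose concentrate or pass glucose, imino and neutral amino acids, lactate, fatty acids and nucleosides. Those that fell were the amino acid carriers SLC7A5, SLC7A1 and SLC3A1, the fatty acid carrier SLC27A1 and the nucleoside carrier SLC29A1.

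**Figure D1:**
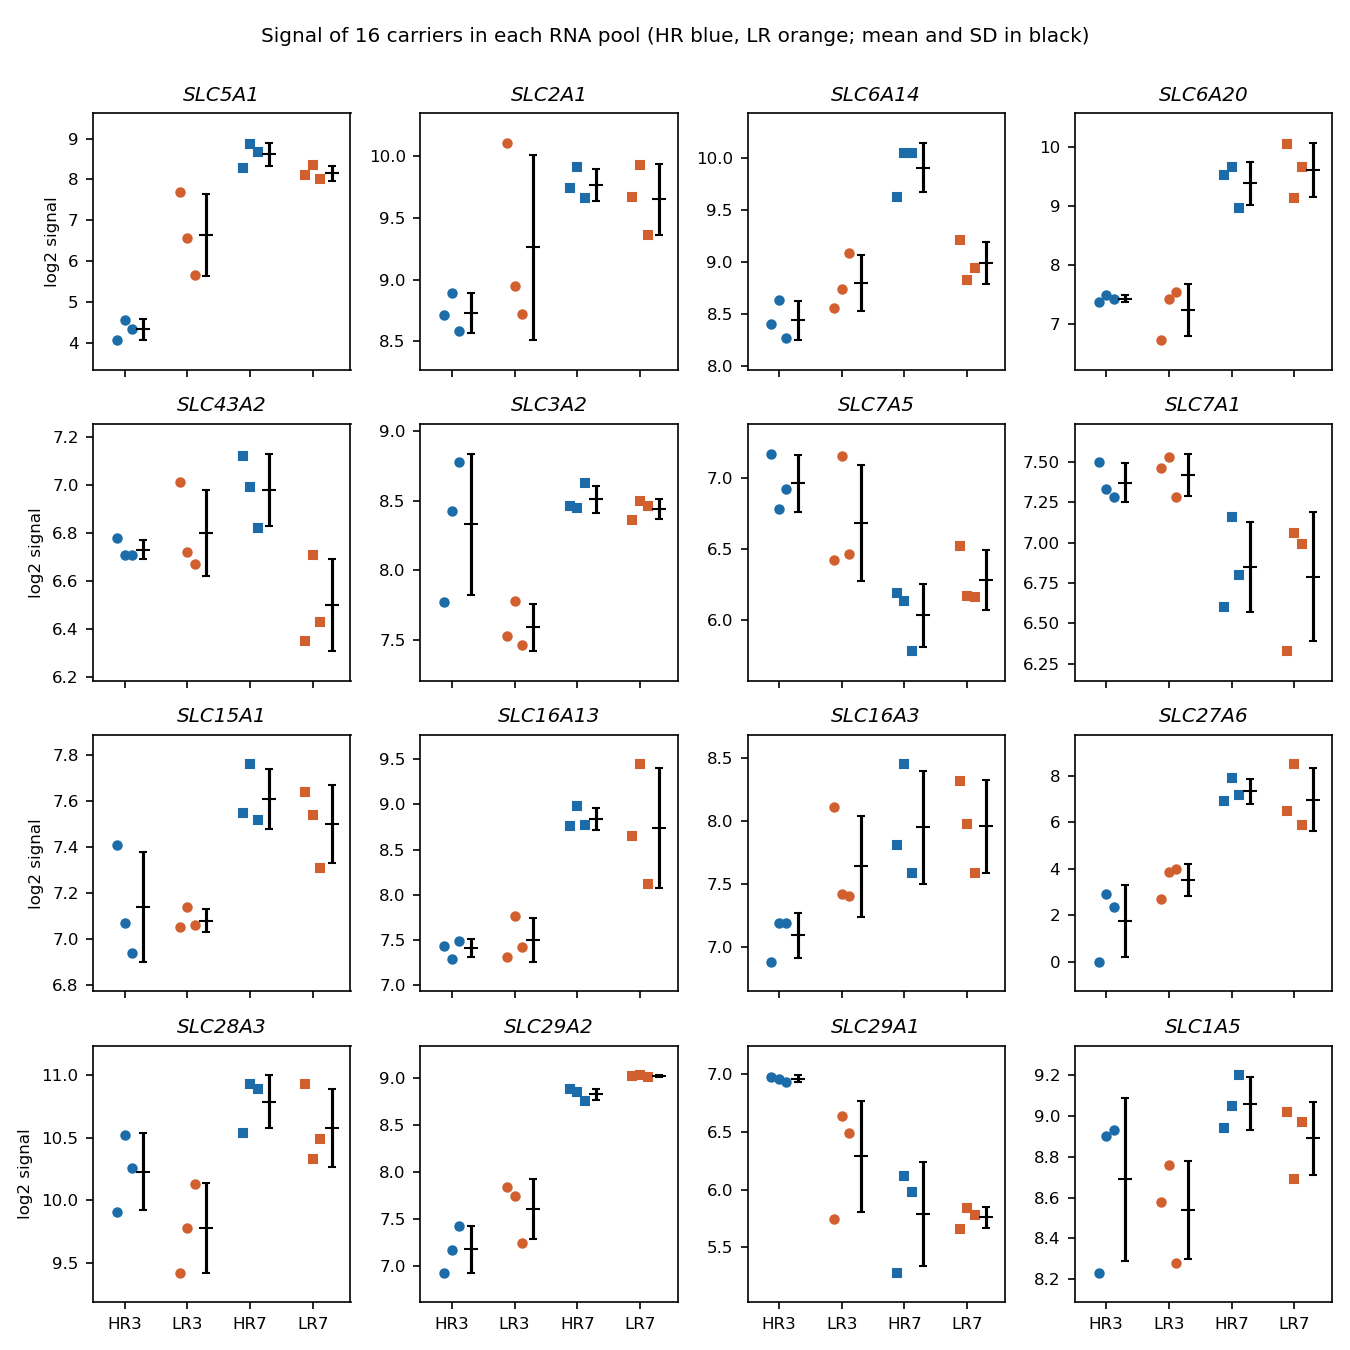
Log2 signal (vertical axis) of 16 carriers in every RNA pool of HR3, LR3, HR7 and LR7 (HR blue, LR orange; circles day 3, squares day 7); black marks are the group mean and SD over 3 pools, and each panel has its own scale. SLC5A1 sits lowest in HR3, and SLC6A14 sits highest in HR7.

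Glucose and related sugars were covered by 17 probe sets for 11 genes, of which only those of SLC5A1 and SLC2A1 were tested. SLC5A1 carries glucose and galactose into cells together with sodium. Its signals were 4.07, 4.56 and 4.35 in HR3 pools, 7.68, 6.57 and 5.67 in LR3 pools, 8.29, 8.86 and 8.67 in HR7 pools, and 8.11, 8.35 and 8.0 in LR7 pools. All HR3 pools lay under all LR3 pools and under the array median, and both day 7 groups lay above both day 3 groups. Over both groups SLC5A1 rose by 2.90 ± 0.27 (SE, 7.45-fold, adjusted p = 7.86e-06). This probe set passed the filter only through the day 7 groups, where it was highest, so the filter favours a rise. The rise was 4.28 ± 0.38 in HR (adjusted p = 2.26e-05) and 1.51 ± 0.38 in LR (adjusted p = 0.00902, and 0.211 with dap as a covariate). A second probe set for SLC5A1, with no pool above the array median, also rose over both groups in the fit of all probe sets, by 0.80 (adjusted p = 0.0314).

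SLC2A1 is the glucose carrier that most cell types use. It had 8.71, 8.89 and 8.58 in HR3 pools, 10.11, 8.95 and 8.72 in LR3 pools, 9.74, 9.91 and 9.66 in HR7 pools, and 9.67, 9.93 and 9.36 in LR7 pools. One LR3 pool exceeded all 6 day 7 pools. SLC2A1 rose by 0.72 ± 0.21 over both groups (adjusted p = 0.0097). In HR the difference was 1.04 ± 0.29 (adjusted p = 0.0155, and 0.054 without pool 2 of HR7) and in LR 0.39 ± 0.29 (adjusted p = 0.27).

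The remaining sugar carriers lay under the signal filter. One of 3 probe sets of SLC2A5, the fructose carrier, rose in the fit of all probe sets, by 1.08 (adjusted p = 0.000464), from 4.83, 5.03 and 5.09 in HR3 pools and 4.63, 4.83 and 5.25 in LR3 pools to 5.86, 6.34 and 6.21 in HR7 pools and 5.99, 6.01 and 5.72 in LR7 pools. The other SLC2A5 probe sets differed by -0.30 and -0.01. SLC2A6 rose by 0.42 (adjusted p = 0.0365), and 1 of 3 probe sets of SLC5A10 fell by 0.39 (adjusted p = 0.00666). SLC2A3 (4.0 to 5.01 over the 12 pools) and the insulin-responsive SLC2A4 (3.78 to 4.98) differed by 0.22 and -0.19 and passed no test. Of the 3 members of these families that carry other substrates, SLC5A11, a carrier of myo-inositol, fell by 0.53 (adjusted p = 0.0224), and SLC5A5 and SLC5A6 passed no test.

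Among the amino acid carriers of SLC6, SLC6A20 and SLC6A14 were tested, of 8 probe sets for 5 genes. SLC6A20 takes up proline and related imino acids. Its signals were 7.38, 7.49 and 7.43 in HR3 pools, 6.73, 7.43 and 7.54 in LR3 pools, 9.52, 9.66 and 8.97 in HR7 pools, and 10.05, 9.13 and 9.66 in LR7 pools, so that both days were apart by more than the range within either. It rose by 2.16 ± 0.19 (4.48-fold, adjusted p = 5.24e-06), by 1.95 ± 0.27 in HR (adjusted p = 0.000351) and by 2.38 ± 0.27 in LR (adjusted p = 0.000135).

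SLC6A14 takes up neutral and cationic amino acids with sodium and chloride. It had 8.4, 8.64 and 8.27 in HR3 pools, 8.56, 8.74 and 9.09 in LR3 pools, 9.63, 10.05 and 10.05 in HR7 pools, and 9.21, 8.83 and 8.94 in LR7 pools. The HR7 pools lay above those of the other groups, which overlapped in part. SLC6A14 rose by 1.47 ± 0.18 in HR (2.78-fold, adjusted p = 0.000207), while in LR the difference was 0.20 ± 0.18 (adjusted p = 0.375). SLC6A15, a carrier of branched-chain amino acids, lay at 0 to 3.9 in 1 of its 2 probe sets, which fell by 1.73 in the fit of all probe sets (adjusted p = 0.0464). Here 2 pools of day 7 stood at 0, so that the size is uncertain, and its other probe set differed by -0.15.

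Of the heavy chains and exchangers of SLC3 and SLC7, 5 of 6 probe sets were tested. SLC3A2 is the heavy chain that brings several SLC7 exchangers to the cell surface. It had 7.77, 8.43 and 8.78 in HR3 pools, 7.53, 7.78 and 7.46 in LR3 pools, 8.46, 8.45 and 8.63 in HR7 pools, and 8.36, 8.5 and 8.46 in LR7 pools, with the LR3 pools low and 1 HR3 pool among them. It rose by 0.52 ± 0.15 over both groups (adjusted p = 0.00979). In HR the difference was 0.19 ± 0.21 (adjusted p = 0.478) and in LR 0.85 ± 0.21 (adjusted p = 0.00894). With dap as a covariate, which takes up part of the difference between LR3 and LR7, the difference over both groups was 0.23 (adjusted p = 0.153).

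SLC7A5, a light chain partner of SLC3A2 that exchanges large neutral amino acids, moved the other way over both groups. It had 7.17, 6.78 and 6.92 in HR3 pools, 6.42, 7.15 and 6.46 in LR3 pools, 6.19, 6.13 and 5.78 in HR7 pools, and 6.52, 6.17 and 6.16 in LR7 pools, the day 7 pools all under the array median. It fell by 0.66 ± 0.15 (adjusted p = 0.00257), in HR by 0.92 ± 0.21 (adjusted p = 0.00579), and the difference in LR was -0.39 ± 0.21 (adjusted p = 0.135). SLC7A5 passed the filter only through HR3, where it was highest, as LR3 had pools under the median too. The filter thus favours a fall in HR.

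SLC7A1, a carrier of arginine and lysine, had 7.5, 7.33 and 7.28 in HR3 pools, 7.46, 7.53 and 7.28 in LR3 pools, 6.6, 7.16 and 6.8 in HR7 pools, and 6.33, 7.06 and 6.99 in LR7 pools. No pool of day 7 reached the lowest pool of day 3, and it fell by 0.57 ± 0.14 (adjusted p = 0.00456). SLC3A1, the heavy chain of the cystine and dibasic amino acid exchanger, likewise did not overlap between the days (8.29 to 8.68 at day 3 and 7.64 to 8.19 at day 7) and fell by 0.46 ± 0.12 (adjusted p = 0.00631, and 0.0697 with dap as a covariate). Its light chain SLC7A9 lay between 3.64 and 4.75 and was not tested. SLC7A7, an exchanger of cationic against neutral amino acids, had means of 8.19 ± 0.10, 7.97 ± 0.30, 8.32 ± 0.22 and 8.13 ± 0.36 in HR3, LR3, HR7 and LR7 and did not pass (difference 0.14 ± 0.14, adjusted p = 0.386).

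The SLC1, SLC38 and SLC43 families had 15 probe sets for 11 genes, and 5 probe sets were tested. SLC38A7, a lysosomal exporter of glutamine, had 7.71, 7.5 and 7.65 in HR3 pools, 7.81, 7.62 and 7.51 in LR3 pools, 8.3, 8.25 and 7.88 in HR7 pools, and 8.38, 8.42 and 7.89 in LR7 pools. The days did not overlap, and it rose by 0.55 ± 0.12 (adjusted p = 0.00237). SLC43A1, which lets large neutral amino acids pass, rose by 0.38 ± 0.10 (adjusted p = 0.00734), from 8.56 ± 0.10 and 8.38 ± 0.16 in HR3 and LR3 to 8.85 ± 0.23 and 8.86 ± 0.12 in HR7 and LR7.

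SLC1A5, an exchanger of glutamine, had 8.23, 8.9 and 8.93 in HR3 pools, 8.58, 8.76 and 8.28 in LR3 pools, 8.94, 9.05 and 9.2 in HR7 pools, and 9.02, 8.69 and 8.97 in LR7 pools. It passed with a difference of 0.36 ± 0.14 (adjusted p = 0.0382), but missed the threshold without pool 1 of HR3, LR3 or LR7, pool 3 of LR3, HR7 or LR7, or pool 2 of HR7 (0.25 to 0.38, adjusted p = 0.0545 to 0.0845) in the fit of all probe sets (adjusted p = 0.0885) and with dap as a covariate (0.13, adjusted p = 0.434). Its relative SLC1A4 differed by 0.46 ± 0.25 (adjusted p = 0.126). SLC1A1, a carrier of glutamate and aspartate, was not tested because no group had all its pools above the array median. It had 3.94, 5.13 and 5.15 in HR3 pools, 5.28, 4.09 and 4.68 in LR3 pools, 6.44, 6.91 and 6.72 in HR7 pools, and 7.22, 7.15 and 5.83 in LR7 pools, and rose by 2.0 in the fit of all probe sets (adjusted p = 0.00195).

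SLC38A2, a sodium-coupled carrier of small neutral amino acids, stayed between 11.09 and 11.49 in all 12 pools. Its SD of 0.12 was under the filter, and the difference with the day was 0.06 in the fit of all probe sets (adjusted p = 0.644). A second probe set for it lay far lower, at 2.42 to 4.22. The SLC38A3 probe set above the median was as even (6.69 to 7.06). SLC6A8, which carries creatine, was the only one of 5 genes for neurotransmitters and osmolytes to be tested, and its 2 probe sets differed by -0.23 ± 0.16 and 0.01 ± 0.14 (adjusted p = 0.201 and 0.953).

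Both peptide carriers on the chip were above the median. SLC15A1, which takes up di- and tripeptides with protons, had 7.41, 7.07 and 6.94 in HR3 pools, 7.05, 7.14 and 7.06 in LR3 pools, 7.55, 7.76 and 7.52 in HR7 pools, and 7.64, 7.54 and 7.31 in LR7 pools, so that 1 HR3 pool lay within the day 7 range. It rose by 0.44 ± 0.11 (adjusted p = 0.00379). SLC15A4, a carrier of peptides and histidine in lysosomes, varied too little for the filter (SD 0.16) and fell in the fit of all probe sets by 0.24 (adjusted p = 0.0408), from 9.51 to 9.75 at day 3 to 9.31 to 9.58 at day 7.

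The monocarboxylate carriers move lactate, pyruvate and ketone bodies with protons. SLC16A13, one of the less studied members of this family, had 3 tested probe sets. The one with the highest signal had 7.44, 7.29 and 7.49 in HR3 pools, 7.31, 7.77 and 7.42 in LR3 pools, 8.76, 8.98 and 8.77 in HR7 pools, and 8.65, 9.44 and 8.12 in LR7 pools, without overlap between the days. It rose by 1.33 ± 0.19 (2.52-fold, adjusted p = 0.000128), and the others rose by 1.68 ± 0.22 and 0.39 ± 0.12 (adjusted p = 9.23e-05 and 0.0148, the latter 0.129 with dap as a covariate). Direction was thus shared by the 3 probe sets but not the size. All but the first passed the filter only through day 7, so the filter favours a rise in them.

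SLC16A3, which exports lactate from glycolytic cells, had 6.88, 7.19 and 7.19 in HR3 pools, 8.11, 7.42 and 7.4 in LR3 pools, 7.81, 8.45 and 7.59 in HR7 pools, and 8.32, 7.98 and 7.59 in LR7 pools, with HR3 under all other pools. It rose by 0.59 ± 0.19 (adjusted p = 0.0149, and 0.113 with dap as a covariate). Its second tested probe set differed by 0.31 ± 0.19 (adjusted p = 0.158), and one more, at 4.18 to 4.95, by -0.28. SLC16A1, which moves lactate in either direction, was under the filter, with 4.64, 4.56 and 4.09 in HR3 pools, 4.84, 4.46 and 4.86 in LR3 pools, 5.53, 8.05 and 5.53 in HR7 pools, and 6.45, 5.34 and 4.34 in LR7 pools. A single HR7 pool stood out, and the difference of 1.30 did not pass (adjusted p = 0.0715).

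Fatty acid carriers of SLC27 couple uptake to activation with coenzyme A. SLC27A6 had 0.0, 2.92 and 2.36 in HR3 pools, 2.7, 3.85 and 3.97 in LR3 pools, 6.9, 7.9 and 7.17 in HR7 pools, and 6.49, 8.48 and 5.9 in LR7 pools. It passed the filter only through HR7, and its day 3 signals were near the floor of the scale, so that the size of its rise (4.51 ± 0.53, adjusted p = 4.26e-05) depends on low values. With 16 added to the signal before taking logarithms it was smaller, at 2.74. SLC27A1 fell by 0.44 ± 0.11 (adjusted p = 0.00519, and 0.0717 with dap as a covariate), from 7.29, 6.72 and 7.09 in HR3 pools and 7.45, 7.27 and 7.55 in LR3 pools to 6.8, 6.67 and 6.85 in HR7 pools and 6.67, 6.8 and 6.94 in LR7 pools. SLC27A4 lay at 4.79 to 5.79 and differed by 0.33 (adjusted p = 0.102 in the fit of all probe sets), and SLC27A2 and SLC27A5 passed no test.

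Nucleoside carriers moved in opposite directions. SLC29A2, an equilibrative carrier of nucleosides and nucleobases, had 6.93, 7.17 and 7.43 in HR3 pools, 7.84, 7.75 and 7.25 in LR3 pools, 8.88, 8.85 and 8.76 in HR7 pools, and 9.02, 9.03 and 9.01 in LR7 pools. The days were far apart and the LR7 pools nearly equal. It rose by 1.53 ± 0.12 (2.89-fold, adjusted p = 2.79e-06). SLC28A3, the concentrative carrier that takes purine and pyrimidine nucleosides, had 3 tested probe sets, of which that with the highest signal gave 9.91, 10.52 and 10.26 in HR3 pools, 9.42, 9.78 and 10.13 in LR3 pools, 10.54, 10.93 and 10.89 in HR7 pools, and 10.93, 10.33 and 10.49 in LR7 pools. The days overlapped in this probe set. It rose by 0.68 ± 0.16 (adjusted p = 0.0032), and the others by 1.0 ± 0.17 and 1.17 ± 0.16 (adjusted p = 0.000424 and 0.000105).

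SLC29A1, the other equilibrative carrier of the cell surface, had 6.98, 6.96 and 6.93 in HR3 pools, 5.75, 6.64 and 6.49 in LR3 pools, 5.28, 6.12 and 5.98 in HR7 pools, and 5.66, 5.84 and 5.78 in LR7 pools. HR3 lay above all other pools and was alone above the array median. SLC29A1 thus passed the filter only through HR3, and the filter favours a fall in HR. It fell by 0.85 ± 0.17 (adjusted p = 0.00142), in HR by 1.16 ± 0.24 (adjusted p = 0.00393), and the difference in LR was -0.53 ± 0.24 (adjusted p = 0.0879, and 0.0484 with the pool number as a block). SLC29A3 (4.01 to 5.03) was under the filter and differed by -0.06.

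**Figure D2:**
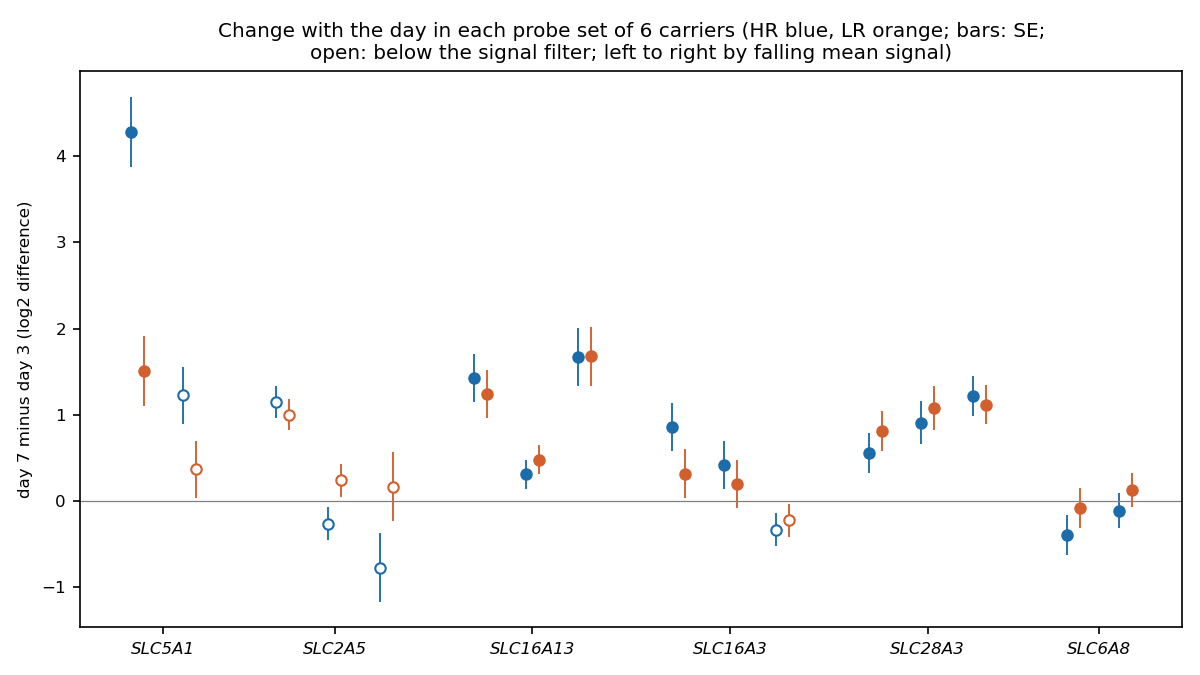
Change from day 3 to day 7 (log2 difference, vertical axis) in each probe set of 6 carriers, for HR (blue) and LR (orange), with SE from the fit of all probe sets; open symbols were under the filter. The 3 probe sets of SLC28A3 all changed upward, while those of SLC2A5 and SLC16A3 did not share one direction.

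Within HR, 13 of the 29 members rose and 2 fell from day 3 to day 7 (20.7% and 20.8% of all tested probe sets), and in the fit of all probe sets 12 of 79 rose and 2 fell, where 11.2% of probe sets changed. SLC5A1, SLC6A14, SLC6A20, SLC27A6 and SLC29A2, with 2 probe sets each of SLC16A13 and SLC28A3, rose, and SLC7A5 and SLC29A1 fell, whichever pool was left out. The remaining 4 calls were lost without 1 pool: SLC2A1 as above, SLC16A3 without pool 1 of HR3 or pool 2 of HR7 (adjusted p = 0.0732 and 0.0931), and SLC15A1 and SLC38A7 without pool 2 or 3 of HR3 or pool 1 or 2 of HR7 (adjusted p = 0.0518 to 0.101). SLC15A1 also missed the threshold with the pool number as a block and only the compared groups (adjusted p = 0.0657), in which the remaining probe set of SLC28A3 passed (0.56, adjusted p = 0.0286).

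Within LR, 14 rose and 3 fell (22.7% and 22.0% of all tested probe sets), and in the fit of all probe sets 11 of 79 rose and 2 fell, where 11.4% of probe sets changed. With dap as a covariate only 2 of the 17 calls were left, those of SLC6A20 and SLC29A2, and the share called over all tested probe sets went from 44.7% to 4.36%. In LR the day and dap moved together. Leaving out pool 1 of LR7 left 11 calls. The calls of SLC5A1 (1.51), SLC3A2 (0.85 ± 0.21, adjusted p = 0.00894), SLC6A20, SLC27A1 (-0.62 ± 0.16, adjusted p = 0.0103), SLC27A6, SLC29A2 and of 2 probe sets each of SLC16A13 and SLC28A3 held whichever pool was left out.

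The other 7 calls in LR depended on single pools. SLC38A7 (without pool 3 of LR3 or pool 1 or 2 of LR7), SLC43A1 (without pool 2 of LR3 or pool 2 or 3 of LR7), SLC7A1 (without pool 1 or 2 of LR3 or pool 1 of LR7) and the remaining probe set of SLC28A3 (without pool 1 of LR3 or LR7) then had adjusted p between 0.0522 and 0.105. SLC3A1 (without pool 2 of HR3, pool 2 or 3 of LR3, or pool 1 of HR7 or LR7), SLC15A1 and the remaining probe set of SLC16A13 (each without any of 8 pools) had adjusted p between 0.0513 and 0.16. With the pool number as a block SLC3A1 missed the threshold (adjusted p = 0.0587), as did SLC15A1 (0.065) and that SLC16A13 probe set (0.0601) where only the compared groups were in that fit.

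**Figure D3:**
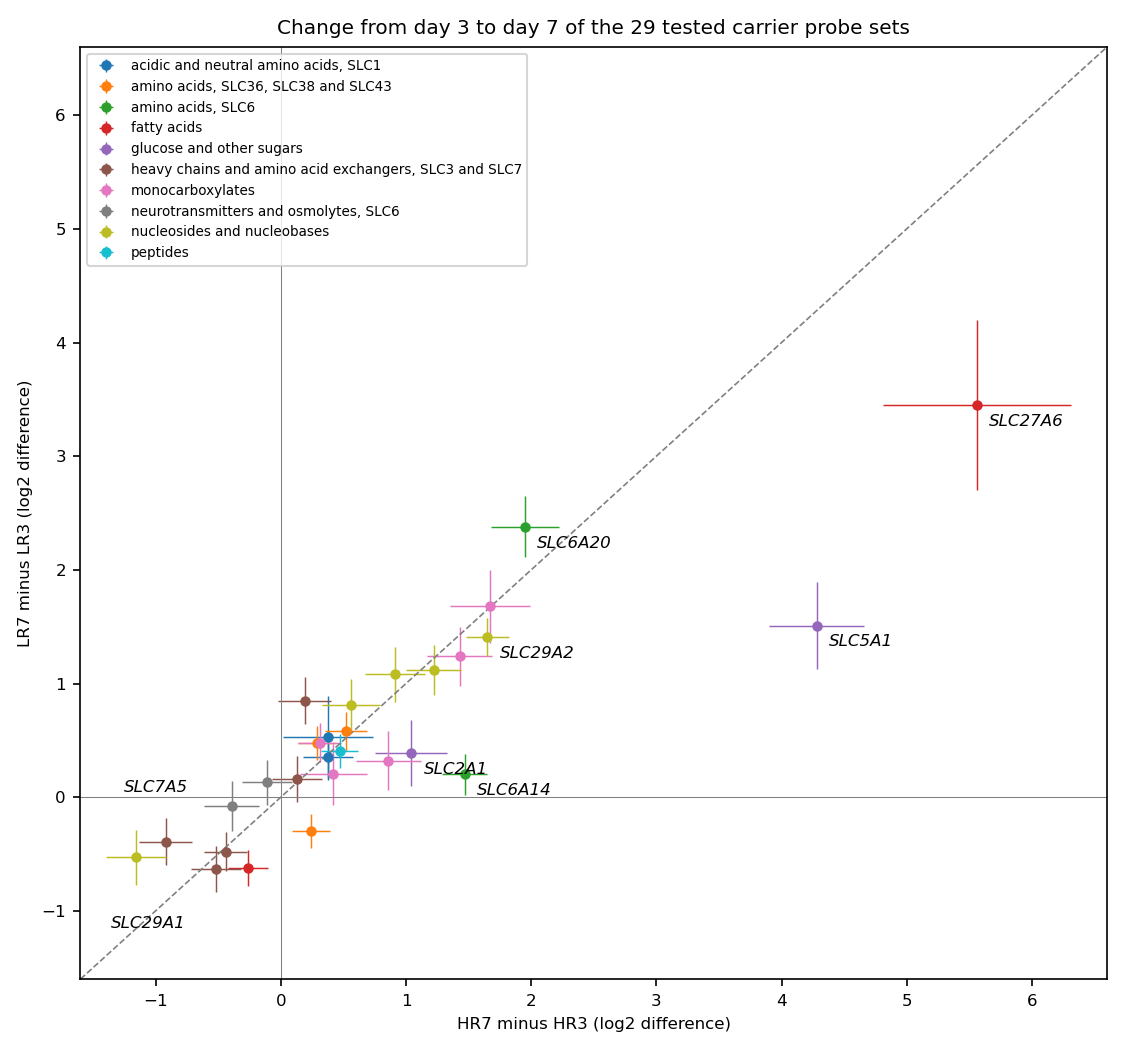
Change from day 3 to day 7 in HR (horizontal axis) and LR (vertical axis), as log2 differences with SE, for the 29 tested probe sets coloured by substrate; the dashed line marks equal change. SLC5A1 (4.28 and 1.51), SLC6A14 (1.47 and 0.20) and SLC27A6 (5.56 and 3.45) lie farthest to the right of the line.

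HR and LR were compared at day 3 to see whether the carriers differ with later receptivity. None of the 29 tested members passed the adjusted threshold, nor did any tested probe set (background 0.0%). The unadjusted p was under 0.05 for 6 members (2 higher in HR3, 4 lower), which is 20.7% of them beside 7.06% of all tested probe sets. In the fit of all probe sets it was under 0.05 for 7 of the 79 members (4 higher, 3 lower), beside 6.8% of all probe sets. Those 6 members are given here with their values, as differences that did not pass. SLC5A1 differed by -2.31 ± 0.38 (4.97-fold lower in HR3, adjusted p = 0.358). It passed without pool 3 of LR3, the LR3 pool nearest to HR3 (-2.80, adjusted p = 0.00835), and with array weights (-2.24, adjusted p = 0.0357). Under the other 23 of 25 alternatives it did not pass. Over all 25 the difference spanned -2.80 to -1.71 and the adjusted p 0.00835 to 0.999. The second SLC5A1 probe set, with 2.74 to 3.70 in both day 3 groups and no pool above the array median, differed by -0.08.

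The heavy chain SLC3A2 was higher in HR3 by 0.74 ± 0.21 (adjusted p = 0.668), with 1 HR3 pool inside the LR3 range, and this difference was 0.19 with dap as a covariate. SLC29A1 was higher by 0.66 ± 0.24 (adjusted p = 0.668) without overlap, by 0.39 without pool 1 of LR3 and by 0.38 with dap as a covariate (adjusted p = 0.999). It was tested only through HR3, where it was highest, so the filter favours this difference and its part in the 20.7%. Lower in HR3 were SLC27A6 by -1.75 ± 0.75 (adjusted p = 0.678), SLC27A1 by -0.39 ± 0.16 (adjusted p = 0.668) and SLC29A2 by -0.44 ± 0.17 (adjusted p = 0.668). The difference of SLC27A6 was -0.87 without the HR3 pool at 0, -0.45 with 16 added to the signals, -0.95 with array weights and -3.92 with dap as a covariate, with adjusted p from 0.268 to 0.999 over all alternatives. That of SLC27A1 was -0.23 without pool 2 of HR3 and -0.10 with dap as a covariate. The second SLC27A1 probe set, under the filter, went the other way (0.32 ± 0.14 in the fit of all probe sets, adjusted p = 0.729), with all HR3 pools (5.0 to 5.39) above all LR3 pools (4.78 to 4.98). Among the tested members the groups did not overlap for SLC5A1, SLC29A1 and SLC16A3, which is 3 of 29 members beside 10.7% of all tested probe sets. That count includes SLC29A1, which the filter favours. The summed stroma markers were also higher in HR3 than in LR3 without overlap, as given above.

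**Figure D4:**
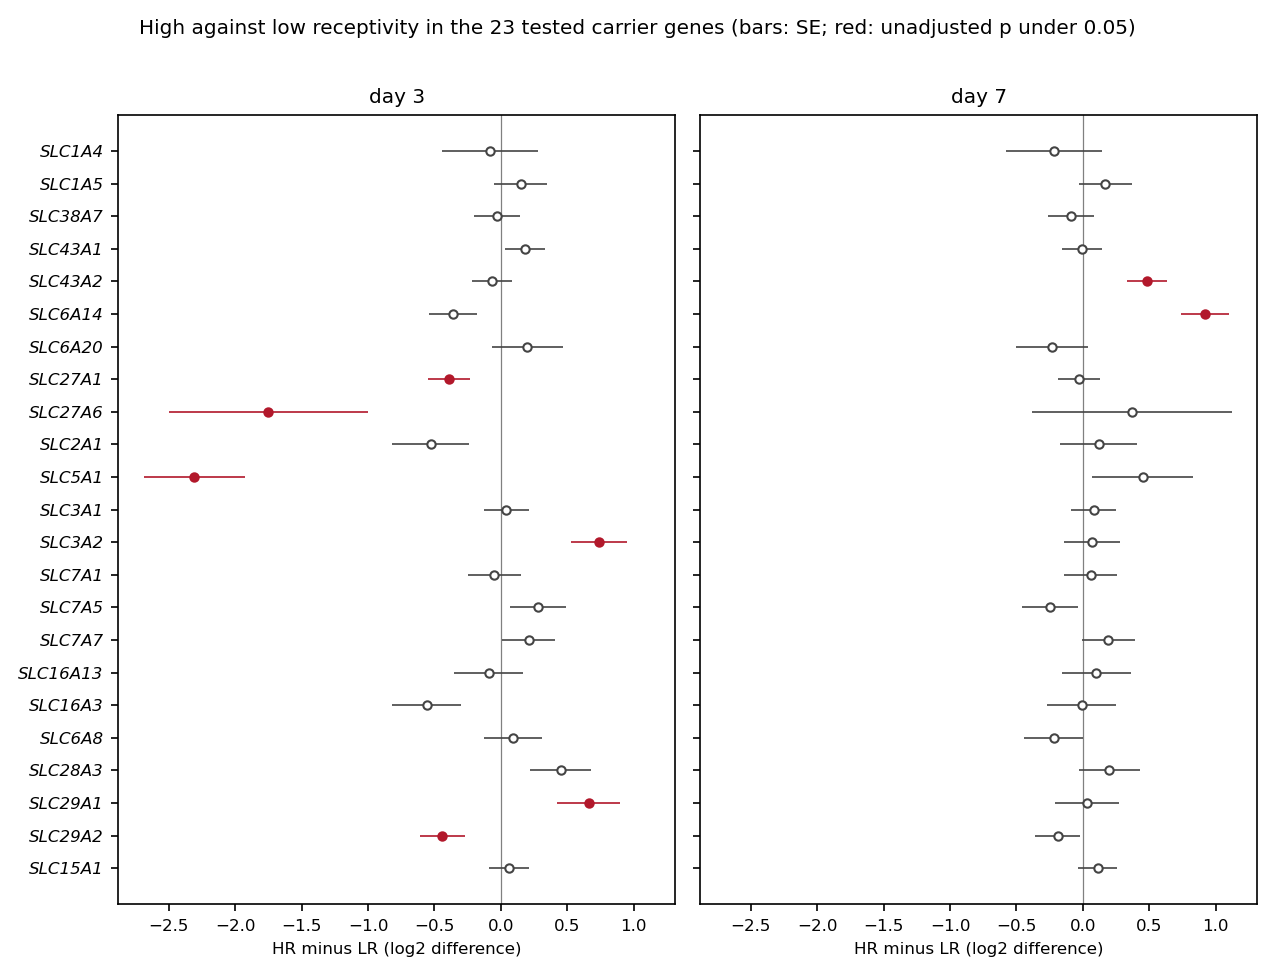
HR minus LR (log2 difference, horizontal axis, bars SE) at day 3 and day 7 for the 23 tested genes, each by its probe set of highest mean signal and ordered by substrate class; red points have an unadjusted p under 0.05. None passed after adjustment, and the points at day 7 lie closer to 0 than those at day 3 for SLC5A1 (0.45 against -2.31) and SLC27A6 (0.37 against -1.75).

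At day 7 none of the 29 members passed, while 0.0681% of all tested probe sets did. Only SLC6A14 and SLC43A2, both higher in HR7, had an unadjusted p under 0.05, which is 6.9% of the members beside 4.51% of all tested probe sets. In the fit of all probe sets there were 5 of the 79 members, all higher in HR7, beside 3.82% of all probe sets. SLC6A14 was higher by 0.92 ± 0.18 (1.89-fold, adjusted p = 0.238), with all HR7 pools above all LR7 pools, and by 0.84 to 1.06 when a pool was left out. The sums of the squamous and of the neutrophil markers given above were also higher in HR7 than in LR7 without overlap. Among the squamous markers KRT14 alone was lower in HR7 by its mean (6.03 ± 0.12 against 6.12 ± 0.16 in LR7). Among the neutrophil markers MPO was lower in HR7 (3.54 ± 0.85 against 3.98 ± 0.96 in LR7). FCGR3A was nearly equal (4.87 ± 0.36 in HR7 against 4.83 ± 0.34 in LR7). SLC43A2, a carrier of large neutral amino acids like SLC43A1, had 7.12, 6.99 and 6.82 in HR7 and 6.35, 6.71 and 6.43 in LR7, against 6.78, 6.71 and 6.71 in HR3 and 7.01, 6.72 and 6.67 in LR3. It was higher by 0.48 ± 0.15 in HR7 (adjusted p = 0.574), without overlap and close to the array median. SLC43A2 passed the filter only through HR7, where it was highest, so the share of 6.9% includes a member that the filter favours. SLC29A2 also did not overlap, with a difference of -0.19 ± 0.17 (adjusted p = 0.997). Of all tested probe sets, 8.94% did not overlap between HR7 and LR7.

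The interaction tested whether the change with the day differed between HR and LR. It uses the same 12 arrays as the comparisons above and so is no separate evidence. None of the 29 members passed (background 0.0%). The unadjusted p was under 0.05 for 4, which is 13.8% beside 3.9% of all tested probe sets. In the fit of all probe sets it was under 0.05 for 4 of the 79 members, 5.06% beside 4.04% of all probe sets. Without passing, the difference with the day was larger in HR than in LR for SLC5A1 by 2.77 ± 0.53 (adjusted p = 0.269) and for SLC6A14 by 1.28 ± 0.26 (adjusted p = 0.354). For SLC43A2 the difference was 0.55 ± 0.21 (adjusted p = 1.0), from 0.24 in HR and -0.30 in LR, neither of which passed. It was tested only through HR7, where it was highest, so its part in the 13.8% is favoured by the filter. SLC5A1 passed without pool 3 of LR3 (3.25, adjusted p = 0.0343). Under the other 22 of 23 alternatives it did not pass, and over all 23 its difference spanned 2.14 to 3.25. For SLC3A2 the difference was -0.66 ± 0.30 (adjusted p = 1.0), and 0.06 with dap as a covariate.

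Genes that work with the carriers were counted from a list of 40 partners and regulators, of which 28 were on the chip and 17 tested. With the day 9 rose and 2 fell, beside the 31.1% and 34.8% of all tested probe sets, and their median difference was 0.34 beside -0.08. That count holds only genes that passed the filter, which favours genes that differ, and none over all 28 is given. PDZK1 and LPL had day 3 means under the array median and passed the filter only through day 7. The list was also chosen with earlier results of these data known. Of the tested genes of fatty acid handling on that list, 4 of 6 rose: FABP3, a cytosolic binder of fatty acids, by 4.04 ± 0.21 (adjusted p = 2.13e-07), LPL, which frees fatty acids from triglycerides, by 3.69 ± 0.28 (adjusted p = 2.34e-06), ACSL3, which activates them, by 1.66 ± 0.12 (adjusted p = 1.94e-06), and FABP5 by 0.81 ± 0.18 (adjusted p = 0.00273). The others did not pass, with -0.54 ± 0.24 for the fatty acid receptor CD36 (adjusted p = 0.0684) and 0.24 ± 0.12 for ACSL1 (adjusted p = 0.0879). PDZK1, a scaffold that binds the tails of carriers at the apical membrane, rose by 5.75 ± 0.33 (adjusted p = 3.75e-07), from 5.86 ± 0.46 in HR3 and 6.19 ± 0.99 in LR3 to 11.65 ± 0.25 in HR7 and 11.91 ± 0.82 in LR7. BSG, the chaperone of the lactate carriers, rose by 0.77 ± 0.13 (adjusted p = 0.000496), and ATP1B1, a subunit of the pump that keeps up the sodium gradient, by 0.70 ± 0.09 (adjusted p = 5.46e-05). SESN2, a sensor of leucine, and LAMTOR1, of the complex that anchors amino acid signalling to lysosomes, rose by 0.44 and 0.34, while MLXIP and DDIT3, transcription factors of glucose and stress responses, fell by 0.49 and 0.39. None of the 17 passed between HR and LR at either day.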

How the data were processed

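Each array was an Affymetrix GeneChip Bovine Genome Array of one RNA pool. Values entered the fit as deposited: they are on the log2 scale, and the authors obtained them with the PLIER algorithm of Expression Console (scans scaled globally in GCOS 1.1.1). Of 24128 entries 112 controls were left out. The platform annotation gave 13292 probe sets 1 symbol, 86 several and 10638 none; no member shared a probe set with another symbol, and no genome build is named, so no positions are given. Sequences were not used here.

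The authors filtered on present calls and on an SD of at least 0.2. Present calls were not used here; the stand-in was a signal above the array median on every array of at least 1 group, and both conditions left 7339 probe sets. One mean per group was fitted over all 12 arrays in limma 3.58.1 (R 4.3.3) with moderated standard errors, after testing the scripts on simulated data, and p-values were adjusted over all tested probe sets within each comparison. The authors fitted a mixed model with Tukey-Kramer and Benjamini-Hochberg adjustments and called probe sets at an unadjusted p, so unadjusted counts are given too. Further software was Python 3.11.15, pandas 2.3.3, numpy 2.4.6 and matplotlib 3.10.9.

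Members, lists and tests were chosen with earlier results of these data known. Named are all tested members with an unadjusted p under 0.05 between HR and LR or in the interaction. Also named are up to 5 called with the day in each direction per substrate class, the member of highest mean signal per class, and well known carriers. Members under the filter that reached such a p only in the fit of all probe sets are counted, but not all are named. For the 17 of 55 genes with several probe sets, that of highest mean signal stands for the gene. A further 43 members missed the stand-in only, 3 the SD only and 4 both.

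The labels number the pools 1 to 3 in every group, without saying whether a number marks shared animals. The paper calls its study longitudinal, so heifers may have been brushed on both days, whereas the main fit treats the groups as independent. Deviations of same-numbered pools from their group means correlated at 0.198, 0.211 and 0.463 between LR3 and LR7 and at 0.136, 0.147 and 0.445 between HR7 and LR7, at -0.082, -0.03 and -0.47 between HR3 and LR3, and at 0.118, 0.003 and -0.06 between HR3 and HR7. One alternative took the pool number as a block. The rest were other filters, scalings and models, dap as a covariate and leaving out each pool. P-values measure only the spread between pools, and 3 pools per group limit the precision. Signals of marker lists for epithelia (uterine, squamous, ciliated), stroma, endothelium, smooth muscle and blood cell types were summed per array.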

Additional observations from a re-analysis of the deposited data

How the results depend on the processing

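Of the 29 members, none passed between HR and LR at day 3 and none in the interaction, but 1 did (SLC5A1) at day 3 with array weights, and leaving out 1 pool gave 0 to 1 in both comparisons. At day 7 there were 0 under all alternatives. Day counts were 15 in HR, 17 in LR and 23 over both. A stricter filter, above the median on all arrays, tested 17 members and gave 9, 10 and 14. In LR the count was 11 with only the compared groups in the fit and 2 with dap as a covariate. Leaving out 1 pool gave 12 to 17 in HR, 11 to 17 in LR and 22 to 24 over both. With the pool number as a block the counts were 0 at day 3, 0 at day 7, 15 in HR, 17 in LR, 23 over both and 0 in the interaction; the same block with only the compared groups, chosen after seeing the data, gave 15 in HR and 15 in LR. It changed no call other than those given in the text. The one reversed value was the interaction of SLC3A2, 0.06 with dap as a covariate; the cause was not tested. Of the values for single probe sets with the day over both groups, 526 kept direction and side of the threshold under an alternative and 17 lost the call; in HR 363 and 21, in LR 361 and 74. Quantile normalization and centring turned no direction. Signals near the floor, as for SLC27A6 and SLC5A1 in HR3, have imprecise differences.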
